A study of Homo sapiens with 28 samples.

Results

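The genes described here are the ligands, antagonists and partners of nodal and activin signalling: NODAL, INHBA and INHBE (ligands), TDGF1 (co-receptor), FOXH1 (transcription factor), LEFTY1, LEFTY2, CER1 and FST (secreted antagonists) and BAMBI (membrane antagonist). They were chosen by name, as every transcript cluster or probeset annotated to these symbols, current or older. All 10 genes had probesets of their own, 67 in all among 287329 probesets on the array. Of the 10 genes, 6 also had a transcript cluster of their own among 22011 clusters (NODAL, CER1, FST, INHBA, INHBE and BAMBI), the gene-level unit that summarises a gene's probesets. The clusters of the other 4 genes carried several symbols, so LEFTY1, LEFTY2, TDGF1 and FOXH1 were read as the mean of their own probesets on each array. None of the 6 clusters with several symbols was called in any comparison.

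The study set human embryonal carcinoma (EC) cells, the stem cells of germ cell tumours, against human embryonic stem (ES) cells on Affymetrix exon arrays. EC on feeders held 3 arrays: the lines NTERA2, 2102Ep and 833KE, cultured in knock-out DMEM with serum replacement and FGF on mouse embryo fibroblasts that mitomycin C had inactivated. EC on plastic held 5 arrays: the lines NCCIT, 2102Ep, 833KE, TERA1 and NTERA2, cultured without feeders in plastic flasks, in a high-glucose DMEM medium containing FCS. ES held 6 arrays: the lines H14, Shef5, Shef 6, Shef3, H9 and Shef7, grown on the same feeders and medium as the EC cells on feeders. All cultures were sorted for the surface marker SSEA3 before RNA was isolated. Every array of a group is a different line with 1 culture, so the errors below hold the spread between lines together with that of cultures and arrays. For EC on feeders against EC on plastic, fitted with line as a block, they describe the spread of the differences within lines. EC on plastic against ES differs in growth condition as well as in cell type, and these cannot be told apart in it.

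Nodal and activin bind type II and type I receptor kinases, which phosphorylate SMAD2 and SMAD3; these enter the nucleus with SMAD4 and act on genes through partners such as FOXH1. Nodal needs the co-receptor encoded by TDGF1, whereas activin does not. The pathway is known for sustaining human pluripotent cells and for starting mesendoderm formation in the embryo, and LEFTY1, LEFTY2 and CER1 are among its own target genes and feed back on it.

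Values are log2 signals, so a difference of 1 is a doubling, and a gene was called where its adjusted p in limma was under 0.05. Array medians lay between 6.19 and 6.39 at gene level. The 220 olfactory receptor clusters, taken as a guide to background, had a median of 3.04 and a 95th percentile of 4.80. The mean of 12 pluripotency markers was 9.67 to 10.39 in EC on feeders, 9.79 to 10.72 in EC on plastic and 9.64 to 10.40 in ES. POU5F1, one of them, read 4.49 to 6.47 over the 14 arrays. It was read only from features with 1 symbol, and any shared with other symbols were left out. How well these measure POU5F1 was not tested, so its level is not read as low expression. Shef5, an ES line, had the highest means of fibroblast markers (6.17) and endoderm markers (6.27). Array numbers in the labels fell into 4 arrays up to 13 (NTERA2 and 2102Ep on feeders, H14 and Shef5) and 10 arrays from 17, here called the earlier and later arrays; what the numbers stand for is not stated.

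Among the 10 genes, CER1 and FST were called lower in EC cells than in ES cells, both on feeders and on plastic. No member was called higher. TDGF1 was higher by mean in EC on feeders (0.86) and EC on plastic (0.85), with no call. NODAL varied more between lines than almost any other gene within EC on plastic and within ES. In the NTERA2, 2102Ep and 833KE lines NODAL, CER1, LEFTY1, LEFTY2 and INHBE were higher on feeders than on plastic in each pair. FST was too, though by only 0.03 in 833KE. None of these passed the adjusted test, and how many of all clusters were higher in each pair was not counted. The plot of levels by group gives every array.

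**Figure D1:**
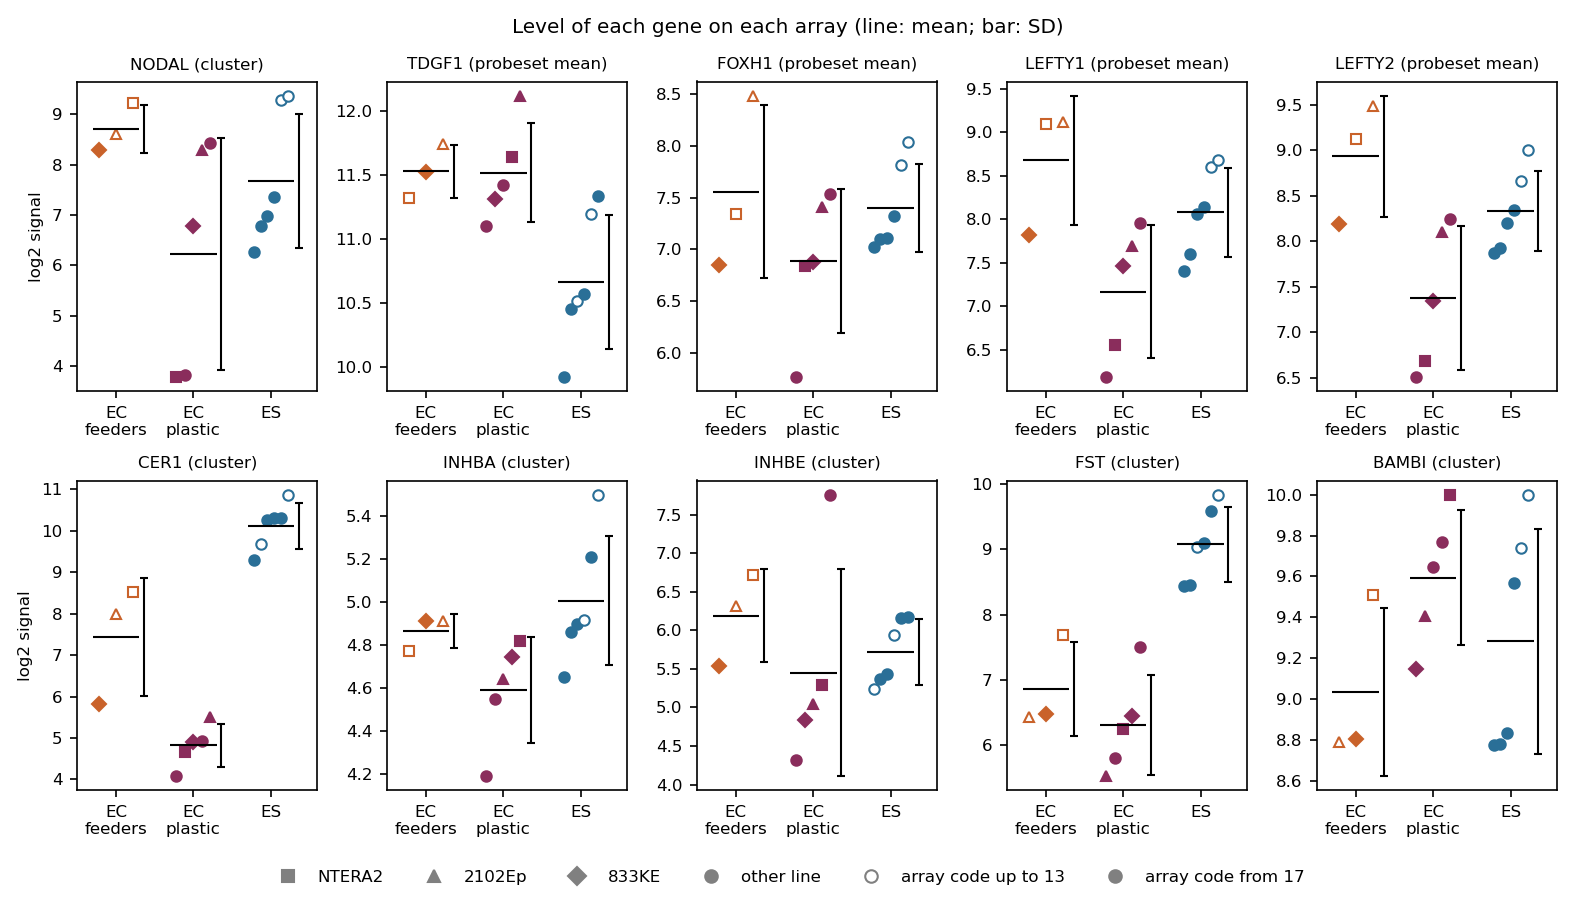
Log2 signal of each of the 10 genes on each array, as its cluster or the mean of its own probesets, in EC on feeders, EC on plastic and ES. Horizontal lines are means, bars are SD, and open symbols are the earlier arrays. CER1 and FST in both EC groups lie below all 6 ES arrays.

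The promoters of CER1, with the largest difference between EC and ES among the 10 genes, and of NODAL, with the widest spread between lines of a group, are shown to set their letters beside these values. They run 5′ to 3′ on the minus strand, from 250 bases before the start site to 50 after it, and come from RefSeq on GRCh38.p14. Capitals mark AATNNACA, the letters bound by FOXH1, and CAGAC, the letters of a SMAD element, each searched on both strands (reverse TGTNNATT and GTCTG). The CER1 window is chr9:14722684-14722983 and the NODAL window chr10:70441632-70441931.
CER1: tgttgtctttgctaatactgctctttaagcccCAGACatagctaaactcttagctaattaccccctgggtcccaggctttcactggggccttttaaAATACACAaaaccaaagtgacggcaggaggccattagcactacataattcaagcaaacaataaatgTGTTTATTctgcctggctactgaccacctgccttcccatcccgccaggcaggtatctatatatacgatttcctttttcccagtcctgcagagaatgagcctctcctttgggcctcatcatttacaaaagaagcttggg
NODAL: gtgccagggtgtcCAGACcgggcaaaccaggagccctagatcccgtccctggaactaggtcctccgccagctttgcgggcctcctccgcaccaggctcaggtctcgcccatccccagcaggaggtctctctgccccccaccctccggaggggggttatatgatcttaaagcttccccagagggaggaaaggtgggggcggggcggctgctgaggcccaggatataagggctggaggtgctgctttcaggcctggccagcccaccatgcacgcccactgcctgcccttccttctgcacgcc
The CER1 window held AATACACA from base -154 and TGTTTATT from base -88, counted from the start site, and CAGAC from base -218. Of 35116 promoters of the same length, 11% held AATNNACA at least once and 1.33% held 2 or more, while 45.3% held CAGAC. The NODAL window held CAGAC from base -237 and no AATNNACA. Neither motif was in the windows of TDGF1 (2 entries) or FST, INHBA held 1 CAGAC and BAMBI 2. A match describes letters, not a bound site. The promoters of LEFTY1, LEFTY2, INHBE and FOXH1 were not analysed here.

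NODAL, the ligand that patterns the early embryo, is in cluster 3293390. In EC on feeders it read 9.23 in NTERA2, 8.61 in 2102Ep and 8.28 in 833KE. In EC on plastic it was 3.83 in NCCIT, 8.29 in 2102Ep, 6.77 in 833KE, 8.43 in TERA1 and 3.78 in NTERA2. In ES it ran from 6.27 in Shef7 to 9.37 in Shef5, with a median of 7.16. NCCIT and NTERA2 on plastic stood below the 95th percentile of olfactory receptor clusters, while every feeder-grown array stood well above it. The SD between lines was 2.30 in EC on plastic, larger than for 99.8% of all clusters, and 1.33 in ES, larger than for 99.7%. The range was at least 12.4-fold in EC on plastic, with the 2 low arrays raised to the olfactory receptor percentile, and 8.57-fold in ES. By mean the order was EC on feeders (8.71 ± 0.48, SD, n = 3), ES (7.67 ± 1.33, n = 6) and EC on plastic (6.22 ± 2.30, n = 5), and no neighbours in that order differed beyond their spread. EC on feeders minus ES was 1.04 (SE 0.68, limma adjusted p = 0.481). EC on plastic minus ES was -1.45 (SE 0.96, limma adjusted p = 0.47).

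The 4 earlier arrays held the 4 highest NODAL values. Among ES these were H14 (9.27) and Shef5 (9.37), against 6.27 to 7.35 in the 4 later ES arrays. Within the later arrays 833KE, the only feeder-grown EC array there, minus the ES mean was 1.44, given with no test. EC on plastic minus ES was -0.62 there (limma adjusted p = 0.842). With the array number as a block, EC on feeders minus ES was 0.42 (limma adjusted p = 0.681). The part of the array number in these levels was not tested.

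INHBA encodes the beta A subunit, which forms activin A. It read 4.77, 4.91 and 4.91 in EC on feeders (NTERA2, 2102Ep and 833KE), 4.19 to 4.82 in EC on plastic with a median of 4.64, and 4.65 to 5.50 in ES with a median of 4.91. All of these lie close to the 95th percentile of the olfactory receptor clusters, and the groups overlapped. EC on plastic minus ES was -0.42 (SE 0.17, limma adjusted p = 0.204). Of 9 INHBA probesets none passed the test in any comparison.

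INHBE encodes the beta E subunit, best known from the liver. It read 6.72 in NTERA2, 6.31 in 2102Ep and 5.53 in 833KE on feeders. On plastic NCCIT stood at 7.76, with 2102Ep at 5.05, 833KE at 4.84, TERA1 at 4.32 and NTERA2 at 5.29. ES ran from 5.24 to 6.17 with a median of 5.69. NCCIT was thus the highest of all 14 arrays, and the other 4 plastic cultures lay near or below the lowest ES array. The SD in EC on plastic was 1.34, larger than for 98.4% of clusters. Neither EC on feeders (0.47, SE 0.30) nor EC on plastic (-0.27, SE 0.50) passed the test against ES (limma adjusted p = 0.476 and 0.833).

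TDGF1 (current symbol CRIPTO), the GPI-anchored co-receptor of nodal and a common marker of pluripotent cells, was bright on every array. The mean of its 2 own probesets was 11.32 in NTERA2, 11.74 in 2102Ep and 11.52 in 833KE on feeders. On plastic it was 11.42 in NCCIT, 12.12 in 2102Ep, 11.31 in 833KE, 11.10 in TERA1 and 11.64 in NTERA2. ES ran from 9.92 in Shef3 to 11.34 in Shef 6, with a median of 10.54. Only H14 and Shef 6 among ES reached the EC range. EC on feeders minus ES was 0.86 (SE 0.28, limma adjusted p = 0.112). EC on plastic minus ES was 0.85 (SE 0.26, limma adjusted p = 0.0602), which became a call without Shef 6 (adjusted p = 0.0388).

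A further 7 TDGF1 probesets also carry the symbol of the copy CRIPTO3 (older name TDGF3) and cannot be assigned to 1 gene; none passed the test. The cluster with both symbols (2620937) had, on every array, the value of the single TDGF1 probeset 2620950, with a largest difference of 0. That probeset was the dimmer of the TDGF1 pair on average in ES, at 10.55, and EC on plastic exceeded it by 0.69 (SE 0.32, limma adjusted p = 0.289). EC on feeders exceeded ES there by 1.03 (SE 0.37, limma adjusted p = 0.245). The lowest EC array on feeders read 11.45 and the highest ES array 11.28.

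FOXH1, the DNA-binding partner of SMAD2 and SMAD3, was read from 11 probesets. Its mean was 7.34 in NTERA2, 8.49 in 2102Ep and 6.85 in 833KE on feeders. On plastic it was 5.77 in NCCIT, 7.41 in 2102Ep, 6.88 in 833KE, 7.53 in TERA1 and 6.83 in NTERA2. ES ran from 7.02 in Shef7 to 8.04 in Shef5, with a median of 7.22. NCCIT was lowest and the groups overlapped. Differences from ES were 0.16 in EC on feeders (SE 0.34, limma adjusted p = 0.859) and -0.52 in EC on plastic (SE 0.30, adjusted p = 0.341). Without 2102Ep the feeder difference turned to -0.31.

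LEFTY1 and LEFTY2 are neighbouring genes for secreted proteins that block nodal at its receptors. LEFTY1, the mean of 8 probesets, read 9.10 in NTERA2, 9.11 in 2102Ep and 7.82 in 833KE on feeders. On plastic it was 6.19 in NCCIT, 7.69 in 2102Ep, 7.46 in 833KE, 7.95 in TERA1 and 6.56 in NTERA2. ES ran from 7.41 to 8.68 with a median of 8.10. NCCIT and NTERA2 on plastic lay below all other arrays, as they did for NODAL.

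LEFTY2, the mean of 9 probesets, read 9.13 in NTERA2, 9.49 in 2102Ep and 8.19 in 833KE on feeders. On plastic it was 6.51 in NCCIT, 8.10 in 2102Ep, 7.34 in 833KE, 8.25 in TERA1 and 6.68 in NTERA2. ES ran from 7.87 to 9.0 with a median of 8.27. Again NCCIT and NTERA2 on plastic were the lowest of all.

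For both genes the order by mean was EC on feeders, ES and EC on plastic, and neither neighbour passed the test. EC on plastic minus ES was -0.91 for LEFTY1 (SE 0.34, limma adjusted p = 0.121). For LEFTY2 it was -0.96 (SE 0.33, limma adjusted p = 0.0963), which became a call without TERA1 (-1.18, adjusted p = 0.0459). EC on feeders minus ES was 0.60 for each (SE 0.35 and 0.31; limma adjusted p = 0.381 and 0.310). All 17 LEFTY probesets were lower in EC on plastic than in ES, with differences of -2.54 to -0.08, and none was called. The steepest LEFTY1 and LEFTY2 probesets were 2458581 (-2.34) and 2458632 (-2.54). The coding sequences of the pair are closely alike, and probesets of one gene correlated with those of the other over the 14 arrays with a median r of 0.79, against 0.84 within LEFTY1 and 0.74 within LEFTY2. How far a probeset of one gene reads the other was not tested. The cluster listed for LEFTY2 and LEFTY1 (2458629) spanned 10.03, 10.76 and 9.08 in NTERA2, 2102Ep and 833KE on feeders, and 5.72, 9.01 and 6.66 in the same lines on plastic.

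CER1 (cluster 3199500) encodes cerberus, a secreted antagonist that binds nodal and BMPs and is made by anterior endoderm in the embryo. On feeders NTERA2 read 8.52, 2102Ep 7.99 and 833KE 5.83. On plastic NCCIT read 4.08, 2102Ep 5.52, 833KE 4.91, TERA1 4.92 and NTERA2 4.66. ES ran from 9.30 in Shef7 to 10.88 in H14, with a median of 10.28. Its promoter window, printed with that of NODAL, held the FOXH1 letters at 2 places. By the cluster, no EC array reached the lowest ES array, and NCCIT and NTERA2 on plastic lay below the 95th percentile of olfactory receptor clusters. By the mean of the 4 CER1 probesets, NTERA2 on feeders (7.89) just passed Shef7 (7.88). CER1 was 39.6-fold lower in EC on plastic (4.82 ± 0.52, SD, n = 5) than in ES (10.12 ± 0.55, n = 6), a log2 difference of -5.31 (SE 0.30, limma adjusted p = 1.08e-05). It was 6.41-fold lower in EC on feeders (7.44 ± 1.42, SD, n = 3) than in ES, a difference of -2.68 (SE 0.53, limma adjusted p = 0.0327). With NCCIT and NTERA2 on plastic raised to the olfactory receptor percentile, the mean fold on plastic was at least 35.1 and the range over all arrays at least 67.5-fold. In bulk RNA, fewer cells that express a gene and less RNA in each such cell cannot be told apart.

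The call on feeders was lost without 2102Ep (adjusted p = 0.0701), H14 (0.0532), Shef 6 (0.0770), Shef3 (0.0760) or H9 (0.0602). Without 833KE, the lowest of the 3, the difference shrank to -1.87 (adjusted p = 0.0435), and it ran from -3.22 to -1.87 as single arrays were left out. With the array number as a block it was -3.0 (adjusted p = 0.0199). Within the later arrays 833KE is the only feeder-grown EC array, and its value minus the ES mean was -4.22, given with no test. In EC on plastic the call held in all 21 settings, between -5.48 and -5.0.

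FST (cluster 2809399) encodes follistatin, which binds activin and holds it from its receptors. It read 7.69 in NTERA2, 6.43 in 2102Ep and 6.47 in 833KE on feeders. On plastic it was 7.51 in NCCIT, 5.53 in 2102Ep, 6.45 in 833KE, 5.81 in TERA1 and 6.25 in NTERA2. ES ran from 8.44 in H9 to 9.84 in H14, with a median of 9.07. All 8 EC arrays, which come from 5 lines, lay below all ES arrays. FST was 6.8-fold lower in EC on plastic (6.31 ± 0.76, SD, n = 5) than in ES (9.08 ± 0.57, n = 6), a difference of -2.77 (SE 0.36, limma adjusted p = 0.00223). On feeders EC cells (6.87 ± 0.71, n = 3) were 4.63-fold lower than ES (-2.21, SE 0.38, limma adjusted p = 0.0194). That feeder call was lost without 2102Ep (adjusted p = 0.0787), 833KE (0.0566) or Shef3 (0.0509). With the array number as a block it was -2.40 (adjusted p = 0.0153), and 833KE alone minus the later ES arrays was -2.42, given with no test. In the 3 lines grown both ways, EC on feeders minus EC on plastic was 0.79 for FST (limma adjusted p = 0.322) and 2.42 for CER1 (adjusted p = 0.246). Without Shef5, the ES array with the most fibroblast and endoderm marker signal, FST differed from ES by -2.22 on feeders and -2.77 on plastic, and CER1 by -2.77 and -5.40, all still called.

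BAMBI (cluster 3240452) encodes a pseudoreceptor that lacks a kinase and damps TGF-beta, activin and BMP signals. It read 9.51, 8.79 and 8.81 in EC on feeders (NTERA2, 2102Ep and 833KE), 9.15 to 10.00 in EC on plastic with a median of 9.65, and 8.78 to 10.00 in ES with a median of 9.20. It was bright everywhere and its groups overlapped; EC on feeders minus ES was -0.25 and EC on plastic minus ES was 0.31 (limma adjusted p = 0.761 and 0.578).

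In EC on plastic against ES, 2 of 10 members were called, both lower, where limma called 4.6% of all clusters, 1.34% in the lower direction. Among gene means over probesets, the scale of LEFTY1, LEFTY2, TDGF1 and FOXH1, it called 8.29%. The members' median difference was -0.71, beside 0.0046 over all clusters, and 8 of 10 differences were below 0. In EC on feeders against ES, 2 of 10 members were again called, both lower, where 2.29% of all clusters were called, 0.731% in the lower direction, and 4.8% of gene means. There the median was 0.31, beside 0.04 over all clusters, with 4 of 10 below 0. CER1 and FST, read from their clusters, were also the 2 members with no overlap between groups in either comparison. The same held in the lower direction for 1.52% of all clusters in EC on plastic and 3.08% in EC on feeders. Both comparisons use the same 6 ES arrays, and every EC line on feeders is also among those on plastic, so they are not independent. The members were chosen with earlier results of these data known.

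At single probesets the falls of CER1 and FST ran along most of each gene, as the plot of probeset differences shows. In EC on plastic against ES, 11 of 67 member probesets were called, all lower, where 2.81% of all probesets were called. These were 4 of 4 CER1 probesets, between -6.09 and -4.04, and 7 of 8 FST probesets. The first 2 FST probesets by number, 2809401 and 2809403, differed by -1.09 and -1.15, against -3.53 to -2.21 at the other 6. The test for probesets that depart from their gene did not call either (diffSplice in limma, adjusted p = 0.104 and 0.135). It took genes with at least 3 own probesets, so TDGF1, with 2, was not tested. It called 0 member probesets in EC on plastic against ES, where it called 0.407% of all tested, and 0 in EC on feeders against ES, where it called 0.239%. In EC on feeders against ES, 7 member probesets were called lower (3 of CER1 and 4 of FST), where 0.953% of all probesets were called.

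**Figure D2:**
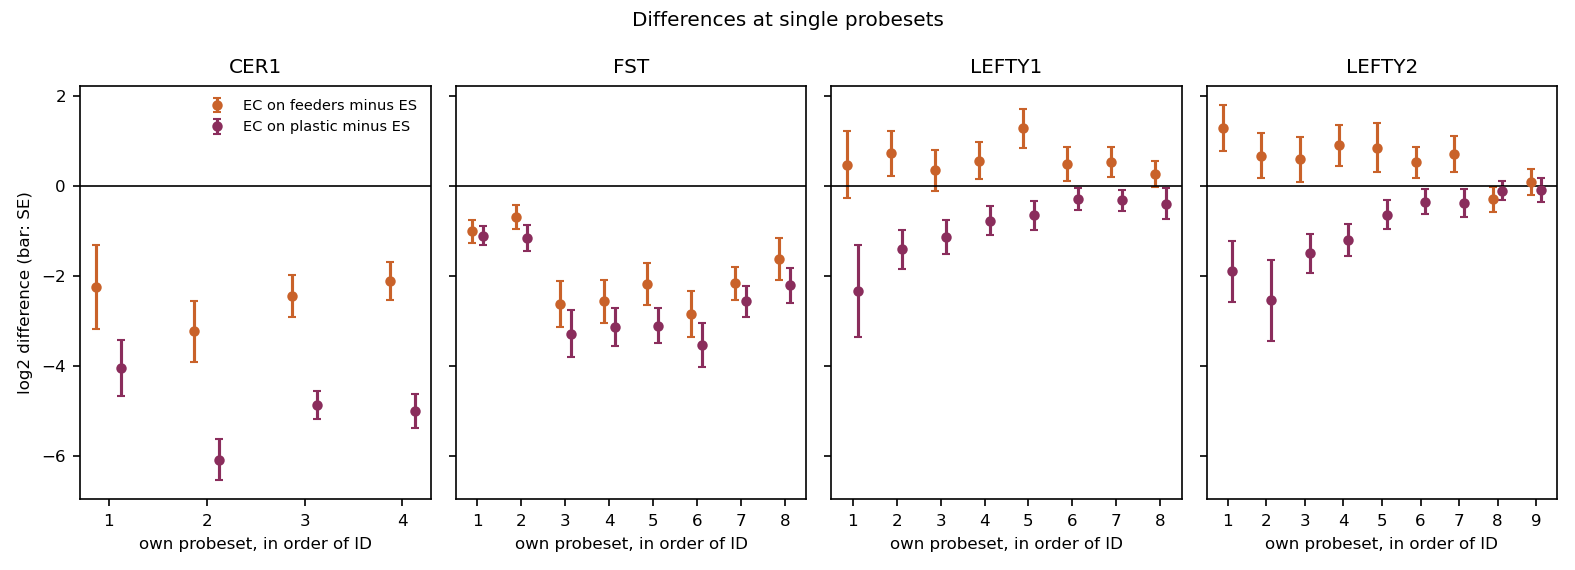
Log2 difference from ES at each own probeset of CER1, FST, LEFTY1 and LEFTY2, for EC on feeders and EC on plastic. Bars are SE. CER1 and FST are below 0 in both groups, while the LEFTY probesets are below 0 in EC on plastic and, with 1 exception in LEFTY2, above 0 in EC on feeders.

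The feeder-grown and plastic-grown cultures of NTERA2, 2102Ep and 833KE were compared within each line. Feeder cultures also had another medium, with serum replacement and FGF, where plastic cultures had a medium with FCS. Medium and feeder cells therefore cannot be told apart in these pairs. In NTERA2, NODAL was 5.45 higher on feeders by the measured signals, in 833KE 1.51 higher and in 2102Ep 0.31 higher. CER1 was higher by 3.86 in NTERA2, 2.47 in 2102Ep and 0.92 in 833KE. The NTERA2 plastic signals of both genes lay below the 95th percentile of olfactory receptor clusters; raised to it, they leave NODAL at least 21.5-fold higher (4.43 in log2) and CER1 at least 13.1-fold higher (3.72). For CER1, as for the probeset means of both LEFTY genes, NTERA2 had the widest gap and 833KE the narrowest, also with the raised value.

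LEFTY1 was higher on feeders by 2.54 in NTERA2, 1.42 in 2102Ep and 0.36 in 833KE. LEFTY2 was higher by 2.44, 1.39 and 0.85 in the same lines. INHBE was higher by 1.43, 1.26 and 0.69. BAMBI was lower on feeders in each line, with differences of -0.49, -0.61 and -0.34. FST differed by 1.44, 0.90 and 0.03, FOXH1 by 0.51, 1.07 and -0.03, INHBA by -0.05, 0.27 and 0.16, and TDGF1 by -0.32, -0.38 and 0.21. These last 4 had at least 1 line with a difference close to 0 or of the other sign.

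**Figure D3:**
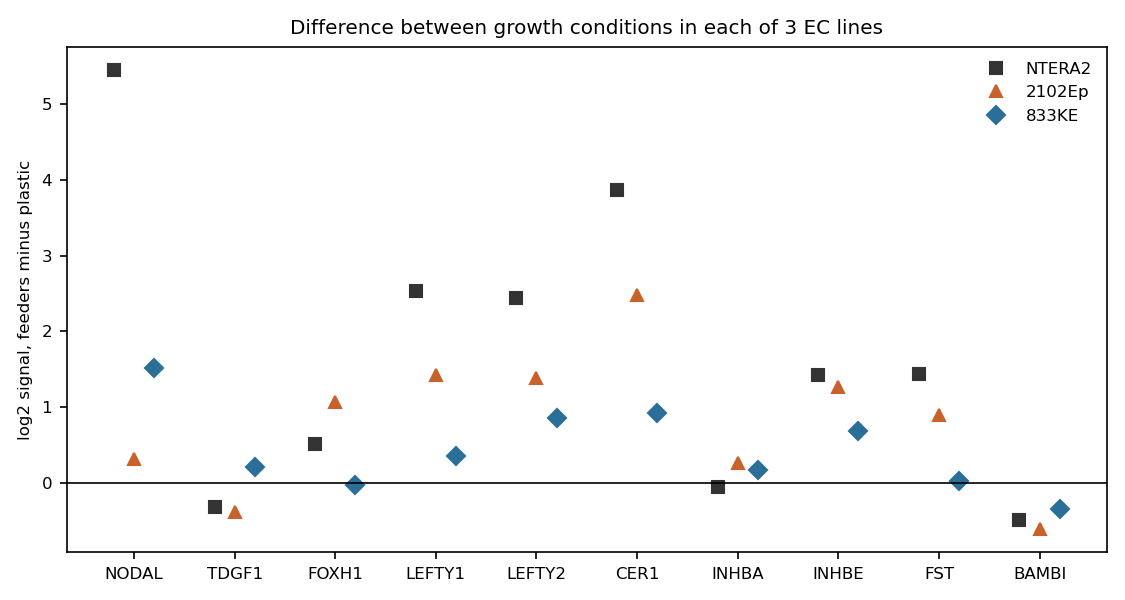
Log2 signal on feeders minus on plastic for each of the 10 genes in NTERA2, 2102Ep and 833KE. NODAL in NTERA2 has the largest gap, at 5.45 (at least 4.43 with its plastic signal raised to the background guide), and NODAL, LEFTY1, LEFTY2, CER1 and INHBE are above 0 in each line. FST is also above 0 in each, by only 0.03 in 833KE.

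With the line as a block, limma called no member and 0% of all clusters at an adjusted p under 0.05, while 6 of 10 members and 3276 clusters had an unadjusted p under 0.05. Mean differences were 2.42 for CER1 (SE 0.55, adjusted p = 0.246), 2.42 for NODAL (SE 0.97, adjusted p = 0.339), 1.44 for LEFTY1 (SE 0.37, adjusted p = 0.166), 1.56 for LEFTY2 (SE 0.30, adjusted p = 0.148) and 1.13 for INHBE (SE 0.21, adjusted p = 0.237). The median over the 10 members was 0.96, beside 0.02 over all clusters. For CER1, INHBE, LEFTY1 and LEFTY2 the feeder and plastic arrays of these lines did not overlap; this held for 14.2% of all clusters and 13.6% of gene means. When all 14 arrays were fitted at once, with line as a random block and all 5 plastic cultures, CER1 was called (2.54, limma adjusted p = 0.0363). In that fit 62 of 22011 clusters were called. LEFTY1 (1.47, limma adjusted p = 0.04997) and LEFTY2 (1.56, adjusted p = 0.0314) were also called, among 16909 gene means of probesets. How many gene means were called in that fit was not counted, so these calls have no matching share beside them.

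For NTERA2 and 2102Ep the feeder array is an earlier one and the plastic array a later one, so for these lines growth condition and array number cannot be told apart. The 833KE pair lies within the later arrays. Its differences are the smallest of the lines for CER1, INHBE and the probeset means of LEFTY1 and LEFTY2. The 2 clusters that carry both LEFTY symbols were split. In 2458629 the difference of 833KE (2.42) was larger than that of 2102Ep (1.75), while in 2458580 it was the smallest (0.17). The mean of fibroblast markers was 5.26 to 5.44 in EC on feeders, 4.55 to 5.31 in EC on plastic and 5.03 to 6.17 in ES. Of 10 fibroblast markers 9 were higher on feeders in the paired fit, with a median difference of 0.18 and none called. The part of feeder cells in the members' differences was not tested.

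Levels of NODAL, LEFTY1, LEFTY2 and FOXH1 ran together over the 14 arrays. Pearson r was 0.89 between NODAL and LEFTY1, 0.88 between NODAL and LEFTY2, 0.78 between NODAL and FOXH1 and 0.94 between LEFTY1 and LEFTY2. Within the 6 ES arrays NODAL and FOXH1 had r = 0.98, and NODAL and LEFTY1 had r = 0.85. These points share line, growth condition and array number: NCCIT and NTERA2 on plastic form the low end and the earlier arrays the high end, as the plot against NODAL shows. CER1 did not share this pattern to the same degree (r = 0.44 with NODAL) and ran with FST (r = 0.84), both following the split between EC and ES. Within the 6 ES arrays CER1 and FST had r = -0.01. TDGF1 and FST had r = -0.73 over the 14 arrays and -0.05 within ES.

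**Figure D4:**
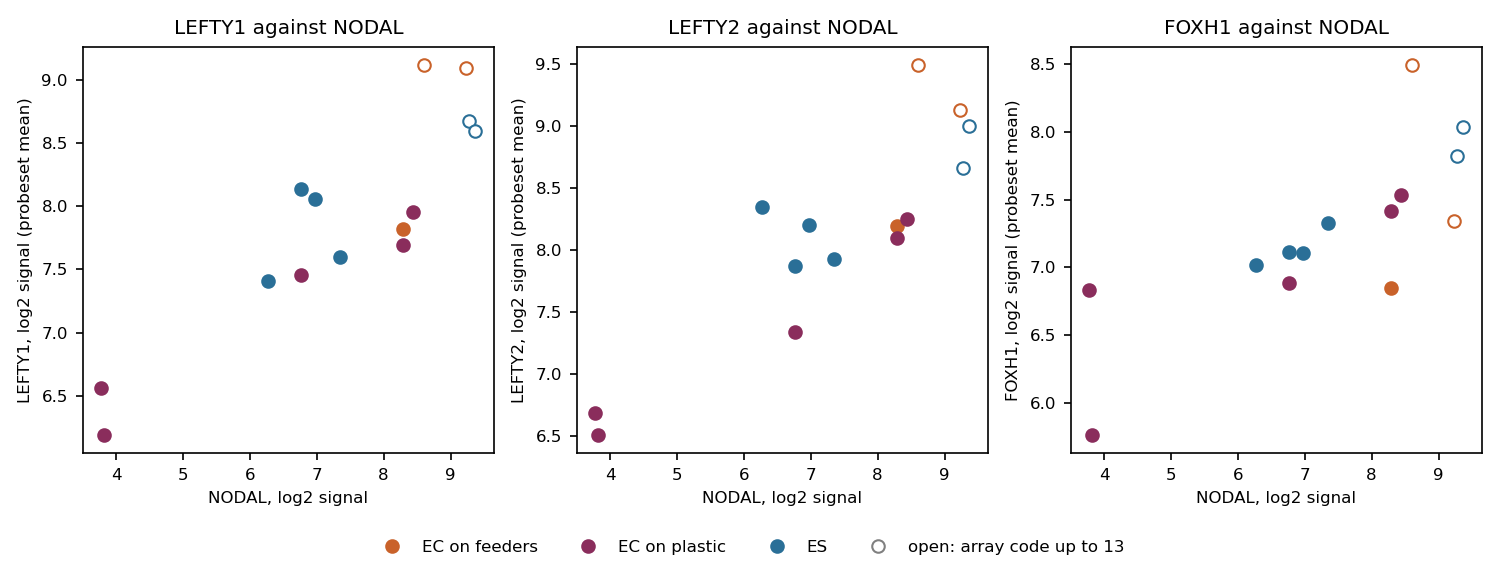
LEFTY1, LEFTY2 and FOXH1 (mean of own probesets) against NODAL (cluster), log2 signal, 1 point an array, for EC on feeders, EC on plastic and ES. Open points are the earlier arrays; NCCIT and NTERA2 on plastic, at NODAL 3.83 and 3.78, stand apart at the low end.

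By the highest Pearson r over the 14 arrays, the single-symbol clusters most like CER1 were CAMKK2 (0.95), COLEC12 (0.94) and RIMS4 (0.93). NODAL was most like NDUFC1 (0.88), VAMP8 (0.88) and TMEM184B (0.86). TMEM184B was also second for LEFTY1 (0.93), after CUTA (0.96). FST was most like BID (0.93), LRRC20 (0.91) and BMP2 (0.90), the last a BMP ligand. INHBE was most like ELMOD3, CHAC1 and TSC22D3 (0.88 each). For the other genes the closest were STARD10 for LEFTY2 (0.89), TMTC1 for TDGF1 (0.86), BSPRY for FOXH1 (0.93), SAMD4A for INHBA (0.87) and KRT12 for BAMBI (0.81). These values are the top of 14432 clusters and only describe these arrays.

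Other genes of the pathway were described from lists of ligands, extracellular partners, receptors, SMADs and nuclear regulators, and target genes. Among 9 other ligands measured, GDF3, a nodal-like ligand of pluripotent cells, was higher at 11.23 ± 0.19 in EC on feeders (SD, n = 3) and 11.22 ± 1.12 in EC on plastic (n = 5), against 7.73 ± 1.17 in ES (n = 6). Its differences were 3.50 and 3.49 (limma adjusted p = 0.0188 and 0.00870). TGFB2, a TGF-beta ligand, fell in EC on plastic (-0.70, adjusted p = 0.0274) and differed by -0.50 in EC on feeders (adjusted p = 0.234). The median of the ligands was -0.04 in EC on feeders and -0.18 in EC on plastic.

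None of 8 convertases and extracellular partners was called in any comparison; FURIN, which cleaves nodal precursors, differed by 0.99 in EC on feeders (adjusted p = 0.108) and 0.47 in EC on plastic (adjusted p = 0.390). PCSK6, a convertase of the same family, differed by 0.37 and 0.24 (adjusted p = 0.295 and 0.377). Of 6 receptors, TGFBR3, the co-receptor betaglycan, rose in EC on feeders (1.36, adjusted p = 0.0313) and EC on plastic (1.43, adjusted p = 0.0478). Of 14 SMADs and nuclear regulators, ZFYVE9, which anchors SMAD2 and SMAD3 near receptors, rose in EC on plastic (1.07, adjusted p = 0.0456) and differed by 0.36 in EC on feeders (adjusted p = 0.584). Over all clusters 4.6% were called in EC on plastic and 2.29% in EC on feeders, and nothing particular to these lists is read from 1 call among 6 or 14 genes.

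Among 10 target genes measured, 4 fell in EC on plastic against ES, where 1.34% of all clusters were called lower. The list was chosen with earlier results of these data known, so this count is no independent test. These were EOMES, a T-box factor of mesendoderm (-1.79, limma adjusted p = 0.00294), MIXL1, a homeobox factor of the primitive streak (-2.25, adjusted p = 0.0263), GATA6, an endoderm factor (-0.77, adjusted p = 0.00599), and SOX17, another endoderm factor (-0.65, adjusted p = 0.0273). In EC on feeders against ES the same genes differed by -1.0, -0.53, -0.49 and -0.37 with no call, and CXCR4, a chemokine receptor of definitive endoderm that was singled out after its values were seen, fell (-1.33, adjusted p = 0.0318), where 0.731% of all clusters were called lower. The count on plastic was 2 without 2102Ep or TERA1, 3 without Shef5, Shef 6 or Shef7, and 5 without NCCIT or H9. Without 2102Ep, TERA1 or Shef5, SOX17 was among the calls lost (limma adjusted p = 0.0611, 0.0567 and 0.0560). The CXCR4 call was lost without 2102Ep, 833KE, Shef 6, Shef3, H9 or Shef7 (adjusted p of 0.0568 to 0.117). All 10 targets were below 0 in EC on plastic, with a median of -0.70 beside 0.0046 over all clusters. Against ES, EC on feeders had a median of -0.43 with 8 of 10 below 0. Endoderm markers moved the same way: of 8 measured, 7 were below 0 in EC on plastic (median -0.50) and 6 in EC on feeders (median -0.35), with none called. The mean over these markers was 5.11 to 5.22 in EC on feeders, 5.03 to 5.22 in EC on plastic and 5.09 to 6.27 in ES. AFP, a defining one, stayed at 2.17 to 2.47 in EC on feeders, 2.29 to 2.52 in EC on plastic and 2.35 to 4.84 in ES. Without Shef5 the medians of the markers were -0.37 in EC on plastic and -0.24 in EC on feeders. The part of endoderm cells in the differences of CER1 and of the target genes was not tested. Between feeders and plastic 9 of 10 target genes were above 0 with a median of 0.39 and none called. Of the 8 endoderm markers 4 were above 0 there, with a median of 0.03 and none called. MIXL1 averaged 8.67 ± 2.20 in EC on feeders (n = 3) and 7.03 ± 0.29 in the same lines on plastic. These arrays did not overlap, as for 14.2% of all clusters, and MIXL1 was not called.

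**Figure D5:**
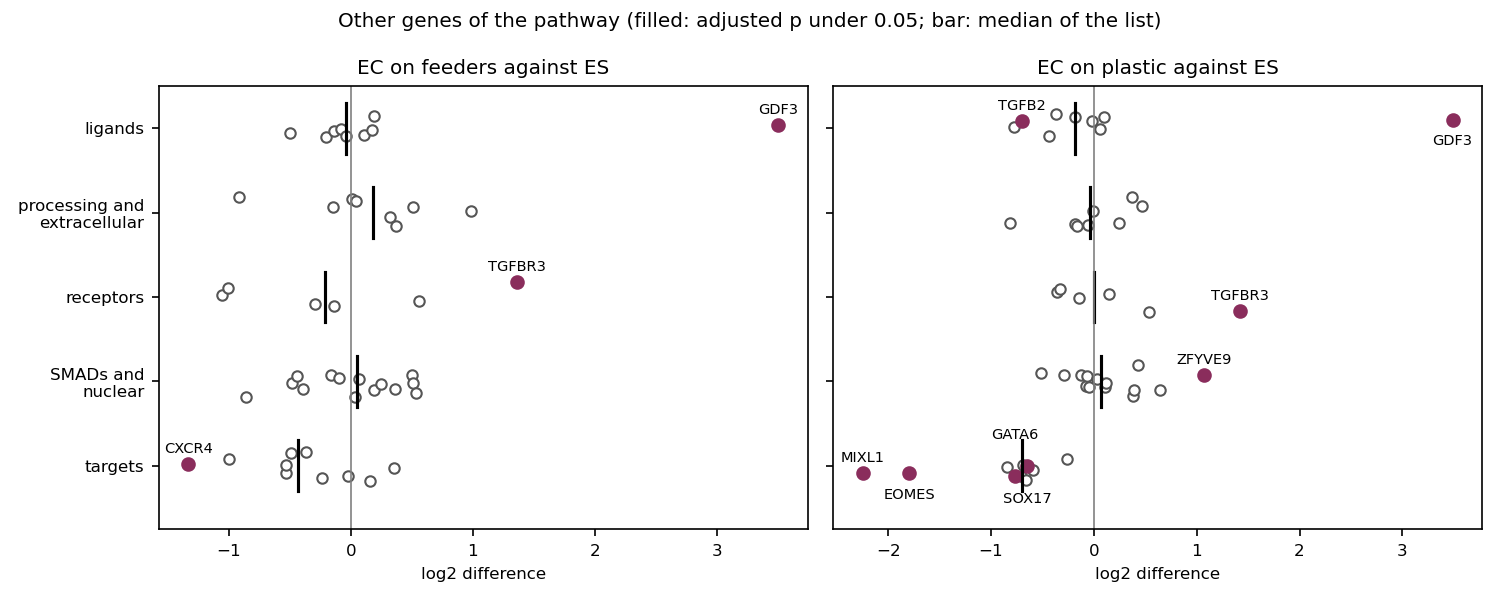
Log2 difference from ES for the other genes of the pathway, grouped by role, in EC on feeders and EC on plastic. Each point is a gene, filled where called in limma, and black bars are list medians; all 10 target genes lie left of 0 in EC on plastic.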

How the data were processed

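RNA of 14 cultures was hybridised to Affymetrix Human Exon 1.0 ST arrays, 1 culture an array, and each array was deposited at gene level and at exon level (28 sample records). The deposited values are log2 signals made by the authors with RMA in Affymetrix Expression Console, per the submitters' processing notes; versions and annotation release are not given in the sources used here. No column was left unmapped (0).

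Symbols came from the platform annotation, updated to current names. Of 22011 clusters 14432 carried 1 symbol, and a feature with several symbols named no gene. All 10 members are named; of each other list, up to 4 called genes, or the 2 with the smallest p, in EC on plastic against ES. Members and lists were chosen with earlier results of these data known.

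Groups were compared by two-sided moderated tests in limma 3.58.1 (R 4.3.3; lmFit, then eBayes) over all clusters, probesets or gene means of probesets (16909 genes), with Benjamini-Hochberg adjustment and a threshold of 0.05. EC on feeders against EC on plastic used the same 3 lines with line as a block; deviations from the group means of same-line arrays correlated at 0.51 (NTERA2), 0.41 (2102Ep) and 0.34 (833KE), and the pairing comes from the line names. diffSplice tested probesets against their gene, in genes with at least 3 own probesets. The tests were checked on simulated data, in which the paired comparison at exon level recovered no changed probesets, so its count of 0 carries no weight. The simulated noise was independent between arrays and had no line effect, unlike the same-line arrays here. The check therefore does not measure the power of the paired comparison on these data. Alternatives were quantile normalisation, dim features left out, eBayes with trend, the array number as a block or later arrays only, all arrays in 1 fit, another summary per gene and leaving out each array. The number of arrays limits the precision. Reading LEFTY1, LEFTY2, TDGF1 and FOXH1 from probeset means, the probeset means of the other 6 genes, the 833KE pair alone, target genes without single arrays, and lower bounds with low signals raised to the olfactory receptor percentile were added after the data were seen.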

Additional observations from a re-analysis of the deposited data

Results flagged for a closer look

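INHBE in EC on plastic had 1 array far from the rest: NCCIT stood at 7.76, and the nearest other array, NTERA2, at 5.29. The gap was 0.719 of the whole range of the 5 arrays, just over the Dixon critical value of 0.71. This was 1 of 32 groups looked at, and chance flags about 1 in 20. TFAP2A, a factor of trophoblast and other lineages singled out after its values were seen, was also highest in NCCIT, at 9.66. Of 9 trophoblast markers measured, only TFAP2A was highest there. CGA (2.88), KRT7 (4.87) and GCM1 (2.91) were lower in NCCIT than on any other array. The part of TFAP2A in the INHBE level was not tested.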

How the results depend on the processing

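In EC on plastic against ES, 2 members were called at gene level without any 1 array (2 to 2), and FST held between -3.07 and -2.51 in 21 of 21 settings. At exon level 11 to 12 member probesets were called there. In EC on feeders against ES the count of 2 at gene level became 1 within the later arrays, where 833KE stands alone for EC on feeders and is assumed to vary like ES, and 0 to 2 without single arrays: 0 without 2102Ep on feeders or Shef3, and 1 without 833KE on feeders, H14, Shef 6 or H9. At exon level its count of 7 became 3 with all 14 arrays in 1 fit, 4 within the later arrays, and 0 to 9 without single arrays. Counts of probesets departing from their gene were 0 to 2 in EC on plastic and 0 to 1 in EC on feeders. Between feeders and plastic 1 gene with its own cluster was called with all 14 arrays in 1 fit, and 0 (0 to 0) without single arrays; without the replicate block the count stayed at 0 and CER1 had an adjusted p of 0.523. Signs turned for INHBE in EC on plastic without TERA1 (0.015; -0.84 to 0.015 without single arrays), and, with 833KE alone against the later ES arrays, for INHBA (0.0049) and INHBE (-0.25). FOXH1 in EC on feeders turned with the array number as a block (-0.14), with 833KE alone within the later arrays (-0.29) and without 2102Ep (-0.31; -0.31 to 0.51 without single arrays). None of the turned values passed the test; the causes were not tested. Target genes called numbered 2 to 5 in EC on plastic and 0 to 3 in EC on feeders without single arrays. Clusters called in all ranged from 527 to 1257 in EC on plastic against ES and from 167 to 649 in EC on feeders against ES. Levels near those of olfactory receptor clusters (INHBA, and CER1 or NODAL in some plastic cultures) limit what differences can be read there.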
